A study of Mus musculus with 10 samples.

Results

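Dppa2, Dppa3, Dppa4, Dppa5a, Zfp42 and Tdgf1 are genes that mouse embryonic stem cells transcribe and most other cells do not. They were picked by gene symbol, by a rule that uses no measured value but was set with earlier results of these data known, from a table of 40779 transcribed units (TUs, stretches of continuous transcription on 1 strand), of which 16137 carry a gene symbol. Each of the 6 genes had 1 TU, and all 6 TUs had enough fragments to be tested among the 28459 TUs tested. The transcription of these genes was followed after loss of SOX2, a transcription factor of the pluripotency network.

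The cells, E14 (IB10) mouse embryonic stem cells, carried an FKBP degron on SOX2, so that the small molecule dTAG-13 directs the SOX2 protein to degradation. Per the study's methods, the tag was brought in at both alleles and clones that responded to dTAG-13 were used, and the medium was serum-free with LIF and the 2i inhibitors PD0325901 at 1 µM and CHIR99021 at 3 µM. All groups therefore carried the tagged alleles and were kept in 2i and LIF, which hold the naive state. There were 10 libraries, 2 replicates for each of 5 groups. Control cells received DMSO and are called NT (not treated), and the others received 500 nM dTAG-13 for 0.5, 1, 2 or 6 hours (hours post depletion, hpd). Nascent RNA was read by TT_chem-seq, in which RNA made during 10 min of labelling with 2 mM 4-thiouridine is fragmented, captured and sequenced, so that introns and non-genic transcripts are counted along with exons. Nothing in the sources says whether the replicates were separate cultures, so that p-values measure the spread between these libraries, which may be technical.

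The 6 genes stand at different places in the stem cell programme. Dppa2 and Dppa4 encode partner proteins with a SAP domain that bind chromatin together and are known as activators of genes of the 2-cell embryo. Dppa3 (Stella) is a small oocyte and germ cell protein that keeps UHRF1 from chromatin and so limits DNA methylation, and Dppa5a (Esg1) is an RNA-binding protein with a KH domain. Zfp42 (Rex1) is a zinc finger protein that arose from a copy of Yy1 and is a common marker of the naive state. Tdgf1 (Cripto) is the membrane-bound co-receptor through which Nodal reaches its receptors.

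Library totals ran from 11131490 to 25854106 fragments, and over TUs, which are not independent of each other, log2 CPM of replicates had a Pearson's r between 0.985 and 0.990. CPM is the count of a TU per 1000000 fragments of the scaled library. The Sox2 TU stood at 263 CPM ± 28.0 (SD, n = 2) without dTAG-13 and 275 ± 4.51 after 6 h, and its log2 fold changes lay between -0.12 and 0.09. The RNA of Sox2 does not check the depletion, which acts on the protein. All 8 markers listed for embryonic stem cells had a TU, and their summed level was 2900 to 3110 CPM in NT and 2250 to 2400 at 6 hpd. Of 8 markers each, 7 of primitive endoderm had a TU (76.7 to 78.9 CPM summed in NT, 97.4 to 110 at 6 hpd), 6 of trophoblast (59.7 to 65.8, then 39.0 to 45.6) and 5 of primed and lineage cells (35.0 to 37.9, then 27.2 to 29.1). The primitive endoderm sum was below NT at 0.5, 1 and 2 hpd (61.1 to 61.3, 57.3 to 61.1 and 69.6 to 71.4). In NT, Lama1 and Dab2 made up most of that sum, and Tfap2c most of the trophoblast sum. Gata4, Gata6, Sox17, Sox7 and Pdgfra had NT means of 0.168 to 1.92 CPM. Within the lists single genes went apart at 6 hpd: Dab2 of primitive endoderm rose from 13.2 to 49.7 CPM and Lama1 fell from 60.0 to 46.9, a call lost without any 1 library of NT, 1 or 6 hpd and by DESeq2. Of the primed list Otx2 (8.86 to 4.37 CPM) and Nes (15.0 to 7.70) fell and Pou3f1 (0.283 to 2.65) rose. Eomes of the trophoblast list was called up at 0.5, 1 and 2 hpd (2.42 CPM in NT, then 6.94, 7.52 and 8.41) and not at 6 hpd (3.33), when Tfap2c (40.5 to 22.9) and Krt8 (6.88 to 1.70) of that list were called down. Of 8 fibroblast markers Col1a1 and Thy1 had a TU, with 0.606 to 1.46 CPM summed over all groups. The part of these marker shifts in the results below was not tested. In such bulk libraries, fewer transcribing cells and less transcription per cell cannot be told apart.

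The TUs reached well beyond the annotated genes. On mm10 (GRCm38), the Dppa2 TU spanned chr16:48310274-48326891 on the plus strand, 16.6 kb, which is 1.80 times the length of the RefSeq gene. Dppa4 lay next to it, at chr16:48281969-48310262 on the same strand (28.3 kb, 2.68 times the gene). The Dppa3 TU spanned chr6:122616119-122634304 on the plus strand (18.2 kb, 4.73 times the gene). These TUs therefore held 55.6%, 37.3% and 21.2% of their length inside the gene. The Dppa5a TU, chr9:78349725-78368199 on the minus strand, was 18.5 kb long for a gene of 1.15 kb, a ratio of 16.1. On the same chromosome and strand, the Tdgf1 TU spanned chr9:110918985-110970385, 51.4 kb or 7.85 times the gene. The Zfp42 TU spanned chr8:43267453-43311729 on the minus strand, 44.3 kb or 3.71 times the gene. All 6 ran on past the annotated 3′ end, by 4.03 kb for Dppa3 up to 27.6 kb for Zfp42. The TUs of Dppa2 and Dppa5a began at the annotated start, whereas those of Dppa4, Zfp42, Dppa3 and Tdgf1 began 1.77, 4.72, 10.3 and 24.2 kb upstream of it. A count for such a TU is thus a count of the whole transcribed stretch, and the files give no separate value for the part inside the gene.

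**Figure D1:**
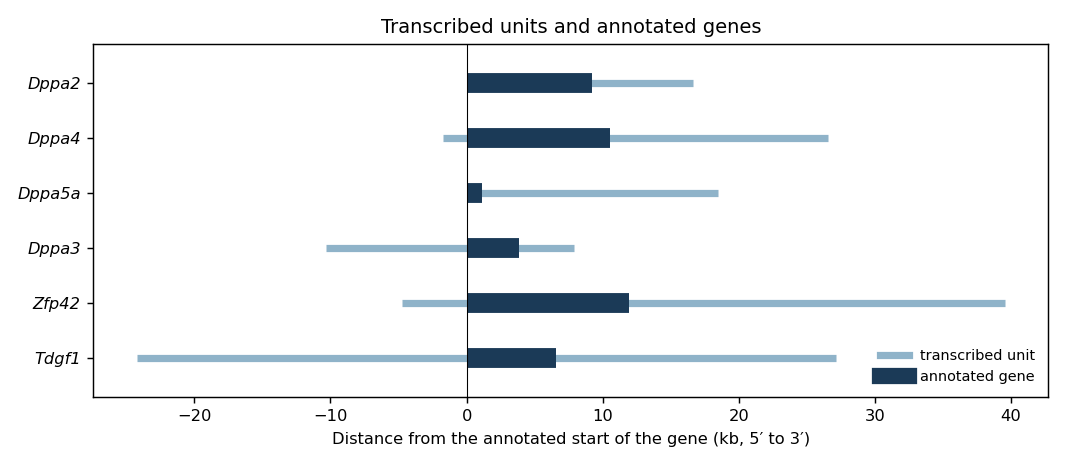
Transcribed units (light bars) and annotated RefSeq genes (dark bars) of the 6 genes, by distance in kb from the annotated start, 5′ to 3′. Each unit runs past its gene, with Dppa5a the longest relative to its gene (16.1 times) and Tdgf1 reaching farthest upstream (24.2 kb).

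Neighbours on the same strand bounded a pair of these TUs. The Dppa4 TU ended 11 bp before the start of the Dppa2 TU, and the TU of Ooep, a maternal-effect gene with a KH domain like that of Dppa5a, ended 11 bp before the start of the Dppa5a TU. Per the study's methods, TUs that held several genes were split at annotated internal start sites where coverage rose. The starts of the Dppa2 and Dppa5a TUs, at the annotated start, may have been set by such a split, which was not tested. Fragments of Dppa4 transcription that runs on into Dppa2, or of Ooep transcription into Dppa5a, are counted with the downstream gene, and their share was not tested. RefSeq also lists pseudogenes for Dppa3 (1), Dppa5a (2), Zfp42 (1) and Tdgf1 (2) and none under the names of Dppa2 and Dppa4. Exonic fragments that match such a copy can be lost to the filter on mapping quality, and no pseudogene of these 6 genes had a TU.

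RefSeq promoter sequences (250 bases before to 50 after the annotated start, GRCm38) were at hand for Zfp42, at chr8:43306960-43307259, and Tdgf1, at chr9:110946109-110946408, both on the minus strand. These 2 of the 6 members had a promoter in the table, and neither had a called change at any time. Their TUs began 4.72 and 24.2 kb upstream of the annotated start, so these windows do not lie at the 5′ ends of the TUs. Capitals mark a match, on either strand, to ATGCAAA, the first 7 letters of the octamer bound by POU factors such as OCT4, the partner of SOX2. No letters matched the SOX core ACAAAG or ACAATG on either strand in these windows.
Zfp42: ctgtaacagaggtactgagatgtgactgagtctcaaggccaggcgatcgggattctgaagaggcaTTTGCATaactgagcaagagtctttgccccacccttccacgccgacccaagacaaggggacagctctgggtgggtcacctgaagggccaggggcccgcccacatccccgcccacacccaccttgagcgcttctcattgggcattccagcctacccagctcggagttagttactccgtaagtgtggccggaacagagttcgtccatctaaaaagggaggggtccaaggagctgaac
Tdgf1: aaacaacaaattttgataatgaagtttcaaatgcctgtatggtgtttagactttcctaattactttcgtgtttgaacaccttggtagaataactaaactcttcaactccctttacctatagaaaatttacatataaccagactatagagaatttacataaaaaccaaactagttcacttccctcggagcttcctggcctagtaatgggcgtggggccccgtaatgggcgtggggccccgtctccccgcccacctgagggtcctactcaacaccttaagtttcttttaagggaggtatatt
The match in Zfp42 began 185 bases before the start and was on the reverse strand. Of the 32851 promoters in the table, 4.63% held these 7 letters and 28.6% held a SOX core. The Zfp42 window had a GC content of 57.7% and the Tdgf1 window 41.7%, against a median of 52.7% over all promoters. A match is a description of the letters and not a binding site, and the absence of one says nothing of the factor.

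To ask how the 6 genes moved after loss of SOX2, each time was compared with NT in 1 fit over all TUs by edgeR's quasi-likelihood F-test, and a TU was called where its p, after Benjamini-Hochberg adjustment over all TUs, was under 0.05. Dppa5a was the only member called at 0.5 hpd, Dppa2 and Dppa5a were called at 1 and 2 hpd, and Dppa2, Dppa4 and Dppa5a at 6 hpd, all lower than in NT. Of the 6 genes, 1, 2, 2 and 3 were thus called down at 0.5, 1, 2 and 6 hpd, where 0.787%, 3.61%, 5.57% and 9.20% of all TUs tested were called down. None was called up, where 0.527%, 2.15%, 4.26% and 6.61% of all TUs were. At an unadjusted p under 0.05 Tdgf1 was higher at 0.5 hpd and no member at the other times, and DESeq2 called none up either. A fit with an added term for the replicate number (replicate block) also called Dppa2 down and Tdgf1 up at 0.5 hpd. The median log2 fold change of the 6 genes was -0.14, -0.35, -0.37 and -0.60 at the 4 times, beside -0.02, -0.04, -0.04 and -0.04 over all TUs tested. These 4 comparisons share the NT libraries. In the joint test of all 4 times, Dppa2, Dppa4 and Dppa5a were called (adjusted p = 0.00204, 0.0275 and 0.00184), against 12.3% of all TUs, and Tdgf1 (0.0536), Dppa3 (0.572) and Zfp42 (0.788) were not. With 1 library left out, the joint test called from 1 member (without NT replicate 2) to 4. Tdgf1 was also called in the joint test with the replicate block, with no filter and by DESeq2.

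**Figure D2:**
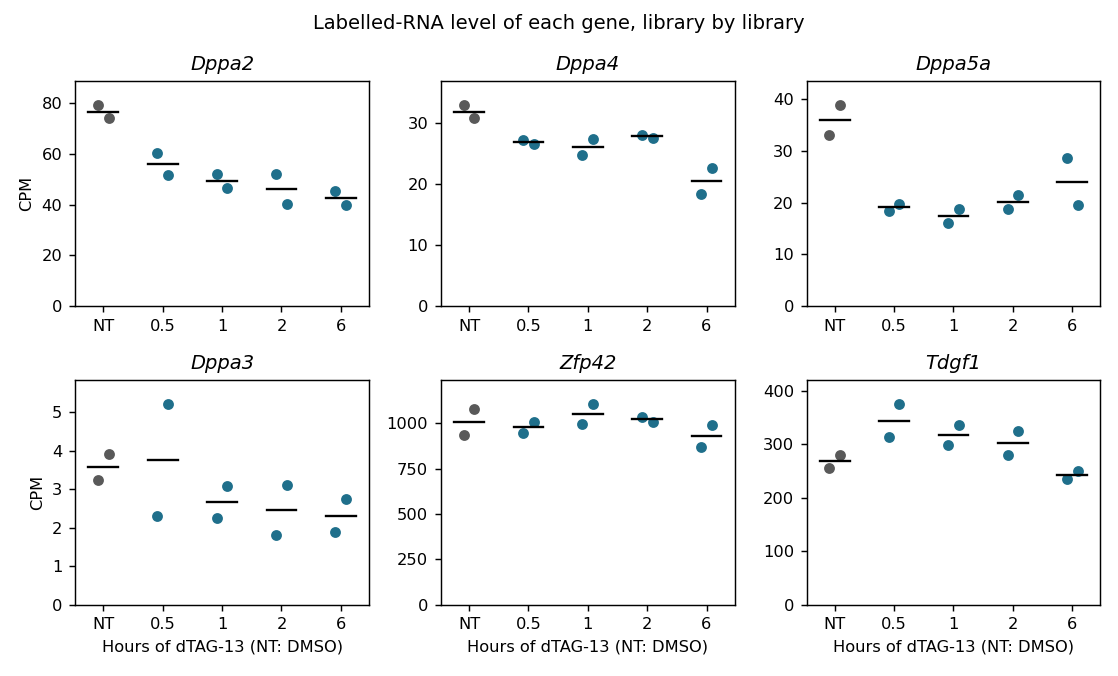
CPM of each gene in every library (points) and the mean of each group (short bars), by hours of dTAG-13, with axes from 0. The depleted libraries of Dppa2, Dppa4 and Dppa5a all lie below both NT libraries, those of Zfp42 spread over the NT range at every time, and those of Tdgf1 lie above NT at 0.5 and 1 hpd and below it at 6 hpd.

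Dppa2 fell against NT at 1, 2 and 6 hpd and stood at 55.7% of its NT level at 6 hpd. The replicates read 79.2 and 74.1 CPM in NT, 60.3 and 51.8 after 0.5 h, 51.9 and 46.6 after 1 h, 52.2 and 40.4 after 2 h, and 45.4 and 39.9 after 6 h. All 8 depleted libraries lay below both NT libraries, as was so for both libraries of a time in 19.0%, 26.7%, 26.6% and 31.0% of all TUs at the 4 times. The log2 fold change was -0.45 ± 0.13 (SE, n = 2 against 2) at 0.5 hpd, with an adjusted p of 0.135, and was called with library totals as the only scaling (-0.48). It was -0.64 ± 0.13 at 1 hpd (adjusted p = 0.00772), -0.72 ± 0.13 at 2 hpd (0.00211) and -0.85 ± 0.13 at 6 hpd (0.000464). Leaving out NT replicate 1 (-0.58) or 1 hpd replicate 2 (-0.56) ended the call at 1 hpd, while the calls after 2 and 6 h stood without any 1 library.

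Dppa4, transcribed on the same strand just upstream of Dppa2, had a smaller early difference and was called at 6 hpd alone. NT libraries had 33.0 and 30.9 CPM, and those at 0.5 hpd had 27.2 and 26.7. The level was 24.8 and 27.4 CPM after 1 h, 28.1 and 27.6 after 2 h, and 18.5 and 22.7 after 6 h. Here too all 8 depleted libraries lay below NT. Its log2 fold changes were -0.24, -0.29 and -0.20 at 0.5, 1 and 2 hpd, each ± 0.12 (adjusted p = 0.566, 0.216 and 0.337), and -0.63 ± 0.12 at 6 hpd (0.00279). Between 2 and 6 hpd it differed by -0.43 ± 0.12 (adjusted p = 0.147). Without 6 hpd replicate 1, the lower of its group, the value at 6 hpd was -0.48 and was not called. The difference between Dppa2 and Dppa4 in time course was not tested.

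Dppa5a had the largest change of the 6 genes at 0.5, 1 and 2 hpd. At 2 hpd its lead over Dppa2 depended on single libraries. With 1 library left out, log2 fold changes at 2 hpd ran from -0.96 to -0.72 for Dppa5a and from -0.92 to -0.57 for Dppa2. The level of Dppa5a went from 33.0 and 38.8 CPM in NT to 18.5 and 19.7 at 0.5 hpd and 16.1 and 18.8 at 1 hpd. It was 18.7 and 21.4 CPM at 2 hpd and 28.5 and 19.6 at 6 hpd. The depleted libraries were below NT at all times, but replicate 1 at 6 hpd came near the lower NT library. On the log2 scale it differed from NT by -0.92 after 0.5 h (adjusted p = 0.00981), -1.04 after 1 h (0.00116), -0.84 after 2 h (0.00337) and -0.58 after 6 h (0.0230), each with an SE of 0.16. From 1 to 6 hpd the level differed by 0.45 ± 0.17 on the log2 scale, which was not called (adjusted p = 0.143). Single libraries decided several of these calls. Leaving out NT replicate 2 ended the calls after 0.5, 2 and 6 h (-0.79, -0.72 and -0.44). The first of these also ended without either 0.5 hpd library (-0.86 without replicate 1, -0.95 without replicate 2), and the last without 6 hpd replicate 2 (-0.33). Only the call after 1 h stood without any 1 library.

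Dppa3 had few fragments, 27 to 61 per library, and no called change. Its replicates read 3.23 and 3.92 CPM in NT, 2.30 and 5.22 after 0.5 h, 2.26 and 3.07 after 1 h, 1.82 and 3.10 after 2 h, and 1.90 and 2.74 after 6 h. The libraries at 1, 2 and 6 hpd lay below both NT libraries and those at 0.5 hpd on either side of them. Fitted log2 fold changes were -0.02, -0.41, -0.55 and -0.61 at the 4 times, with SE of 0.36 to 0.38 and adjusted p of 0.994, 0.601, 0.387 and 0.295. The 95% interval at 6 hpd ran from -1.41 to 0.19, so that a fall as large as that of Dppa2 or no change at all were both within it.

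Zfp42, the highest of the 6, showed no called change at any time. Its NT libraries had 935 and 1078 CPM, and the depleted libraries lay between 872 CPM (6 hpd replicate 1) and 1108 (1 hpd replicate 2), overlapping NT at each time. The log2 fold change was -0.04, 0.06, 0.02 and -0.11 at the 4 times, each ± 0.12, with adjusted p of 0.554 to 0.965. The 95% interval spanned -0.29 to 0.21 after 0.5 h and -0.36 to 0.14 after 6 h. These intervals leave out a change of the size measured for Dppa2 at 6 hpd, and with library totals as the only scaling the signs at 1 and 2 hpd turned (-0.02 and -0.09) while all TUs shifted to a median of -0.13 and -0.16.

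Tdgf1 had values above NT early and below NT late, and neither was called in the fit with 1 coefficient per group. It stood at 257 and 281 CPM in NT, 313 and 376 after 0.5 h, 298 and 337 after 1 h, 280 and 325 after 2 h, and 235 and 251 after 6 h. Both libraries at 0.5 and at 1 hpd lay above both NT libraries, as did 15.6% and 22.9% of all TUs, and those at 6 hpd below. Against NT the log2 fold change was 0.36 after 0.5 h (adjusted p = 0.230), 0.24 after 1 h (0.315), 0.17 after 2 h (0.417) and -0.15 after 6 h (0.440), each with an SE of 0.12. Fitted with only the libraries compared, the value after 1 h was called (0.26). With the replicate block, which also uses all libraries, the value after 0.5 h was called (0.35). From 1 to 6 h it differed by -0.39 ± 0.12 (adjusted p = 0.0848), a difference that DESeq2 called (-0.39). The Tdgf1 TU begins 24.2 kb upstream of the annotated start and shares 33.0 kb of its span with the TU of Lrrc2 on the opposite strand, and the authors counted each strand apart.

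**Figure D3:**
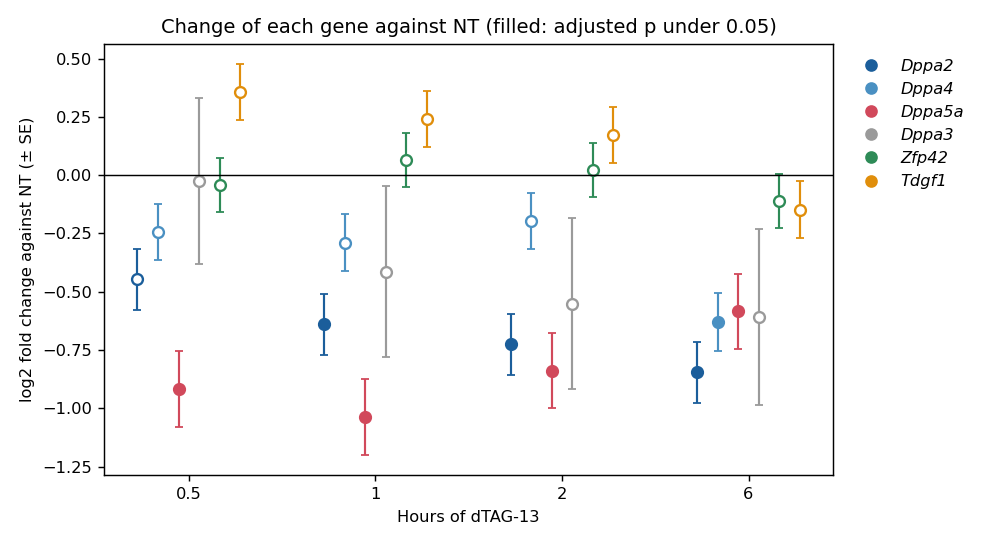
Log2 fold change against NT of the 6 genes at 0.5, 1, 2 and 6 hpd, with bars of ± SE. Filled points have an adjusted p under 0.05: Dppa5a at all 4 times, Dppa2 from 1 hpd and Dppa4 at 6 hpd; the bars of Dppa3 are the longest.

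No member was called between successive times. The share of all TUs called was 0.109% at 1 against 0.5 hpd, 0.218% at 2 against 1 hpd and 0.777% at 6 against 2 hpd, and it was 4.88% at 6 against 1 hpd, where no member was called either. At an unadjusted p under 0.05 there were 0, 0, 2 (Dppa4 and Tdgf1, both lower) and 3 (Dppa4 and Tdgf1 lower, Dppa5a higher) in these comparisons. DESeq2 called only Tdgf1, at 6 against 1 hpd. The replicate block called Dppa4 at 6 against 2 hpd and Tdgf1 at 6 against 1 hpd.

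The levels differed widely among the 6 genes. Per kb of TU, Zfp42 had 22.7 ± 2.3 CPM in NT (SD, n = 2), followed by Tdgf1 with 5.23 ± 0.33 and Dppa2 with 4.61 ± 0.22. Dppa5a followed with 1.94 ± 0.22 CPM per kb, Dppa4 with 1.13 ± 0.05 and Dppa3 with 0.197 ± 0.027. Neighbours in this order did not overlap between their NT libraries, and Tdgf1 and Dppa2 were the closest (lowest Tdgf1 library 4.996, highest Dppa2 library 4.77 CPM per kb). The order depended on the length used. Per kb of annotated gene the NT means were 84.3 CPM for Zfp42, 41.0 for Tdgf1, 31.3 for Dppa5a, 8.30 for Dppa2, 3.02 for Dppa4 and 0.930 for Dppa3, which put Dppa5a above Dppa2. At 6 hpd, Tdgf1 stood at 4.72 ± 0.22 CPM per kb of TU, Dppa2 at 2.57 ± 0.23, Dppa5a at 1.3 ± 0.34 and Dppa4 at 0.728 ± 0.106.

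Non-genic transcription around the 6 genes was read in the TUs without a gene symbol that overlapped a member TU or lay within 50 kb of it. There were 44 such TUs, of which 26 were tested. At 0.5, 1, 2 and 6 hpd, 1, 2, 4 and 3 of them were called down, beside 0.758%, 3.65%, 5.82% and 10.8% of all tested TUs without a symbol. None was called up (0.186%, 0.587%, 1.34% and 2.41% of all such TUs), by DESeq2 either, with 1, 1, 1 and 2 higher at an unadjusted p under 0.05. The units called were 4 in all, and they lay by Zfp42, Dppa3 and Dppa5a. None of the units by Dppa2, Dppa4 or Tdgf1 was called.

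By far the largest of these called changes lay upstream of Zfp42, for which no change was called. An extragenic TU at chr8:43352282-43383501 on the plus strand, 31.2 kb long, began 40.6 kb beyond the 5′ end of the Zfp42 TU and ran away from it on the opposite strand. It had 20.9 and 28.1 CPM in NT, 11.5 and 12.7 after 0.5 h, 5.58 and 8.09 after 1 h, 4.60 and 6.08 after 2 h, and 2.32 and 4.48 after 6 h. No depleted library overlapped NT, and the mean at 6 hpd was 13.9% of NT, while Zfp42 stood at 92.6%. The fitted log2 fold change was -1.03 ± 0.23 after 0.5 h (adjusted p = 0.0359), -1.83 ± 0.24 after 1 h (0.000234), -2.20 ± 0.24 after 2 h (3.19e-05) and -2.82 ± 0.26 after 6 h (3.75e-06). The 95% intervals of this TU and of Zfp42 did not overlap at any of the 4 times, and the difference between them was not tested. Leaving out any of the 4 libraries compared ended the call at 0.5 hpd (-0.79 without NT replicate 2, -1.23 without NT replicate 1, -0.95 and -1.08 without 0.5 hpd replicates 1 and 2), and the calls at 1, 2 and 6 hpd stood without any 1 library. The 4 other tested TUs within 50 kb of Zfp42 were not called. They were a TU that runs opposite to Zfp42 along nearly all of its length (-0.23 ± 0.14 at 6 hpd), a pair on either strand 8.74 kb upstream (-0.49 ± 0.24 and -0.13 ± 0.32) and a TU 26.5 kb upstream (-0.85 ± 0.29, adjusted p = 0.0646).

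**Figure D4:**
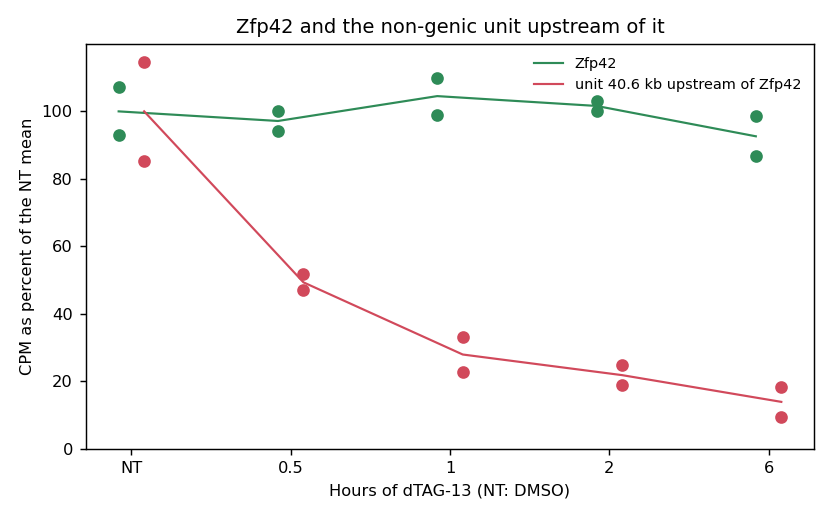
CPM of Zfp42 and of the non-genic TU 40.6 kb upstream of it, each library as percent of the NT mean (points) with lines through the group means, by hours of dTAG-13. The upstream TU lies at 13.9% of NT at 6 hpd and Zfp42 at 92.6%.

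**Figure D5:**
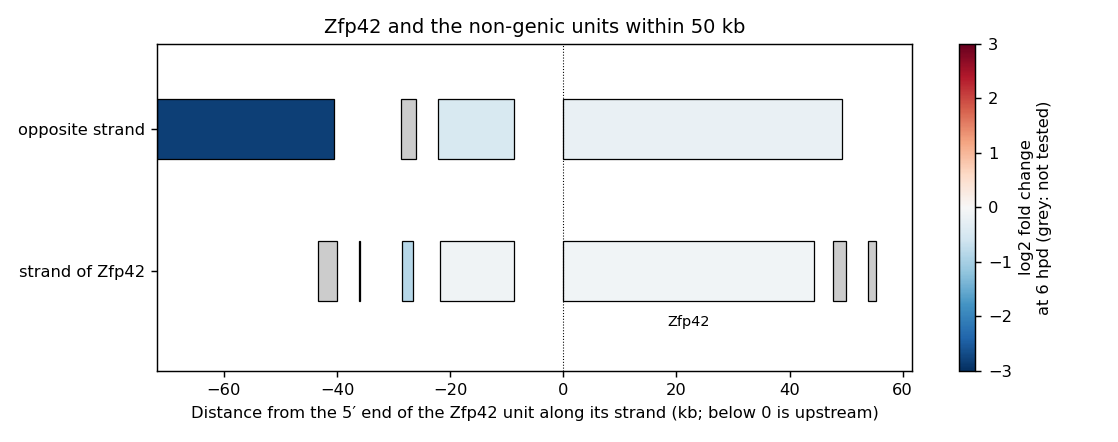
Zfp42 and the non-genic TUs within 50 kb on both strands, by distance in kb from the 5′ end of the Zfp42 TU, coloured by log2 fold change at 6 hpd (grey: not tested). The TU at the far upstream end of the opposite strand is the darkest (-2.82), beside -0.11 for Zfp42.

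By Dppa3, the upstream TU at chr6:122591417-122615140 on the same strand, which ends 0.978 kb before the Dppa3 TU and runs opposite to Gdf3 and Apobec1, fell at 1, 2 and 6 hpd. It read 6.46 and 10.3 CPM in NT and 4.50 and 4.43 after 6 h. Its log2 fold changes at the 4 times were -0.45 ± 0.22 (adjusted p = 0.572), -0.83 ± 0.23 (0.0460), -0.93 ± 0.23 (0.0176) and -0.90 ± 0.23 (0.0160). These calls rested on NT replicate 2, without which the values at 1, 2 and 6 hpd were -0.45, -0.56 and -0.52 and none was called. The call at 1 hpd was also lost without either library of 1 or of 6 hpd, that at 2 hpd without 2 hpd replicate 1, and that at 6 hpd without either 6 hpd library, at values of -0.77 to -0.90. A TU of few fragments farther downstream of Dppa3, chr6:122659255-122664737 on the minus strand, was called at 2 hpd alone (-1.39 ± 0.37, adjusted p = 0.0252). It had 2.15 and 1.96 CPM in NT and 0.910 and 0.643 at 2 hpd, and the call was lost without any of these 4 libraries (-1.19 to -1.67). The TU that runs opposite to Dppa3 itself was not called (0.38 ± 0.26 at 6 hpd).

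The antisense TU at the start of Dppa5a, chr9:78367348-78387310 on the plus strand, was called down at 2 and 6 hpd. It shares 852 bp with Dppa5a and runs opposite to the whole of the Ooep TU, chr9:78368211-78378691 on the minus strand. Its time course was not tested against that of Dppa5a. It had 6.73 and 5.74 CPM in NT, 4.14 and 4.19 after 0.5 h, 4.39 and 3.42 after 1 h, 3.29 and 3.45 after 2 h, and 2.81 and 3.67 after 6 h. All depleted libraries lay below NT. The log2 fold change was -0.59 ± 0.21 and -0.68 ± 0.21 at 0.5 and 1 hpd (adjusted p = 0.281 and 0.0815), -0.89 ± 0.21 at 2 hpd (0.0153) and -0.94 ± 0.22 at 6 hpd (0.00895). Both calls were lost without NT replicate 1 (-0.77 and -0.80), that at 2 hpd also without 2 hpd replicate 1 (-0.85) and that at 6 hpd without 6 hpd replicate 1 (-0.75).

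Among the 18 genes within 100 kb of a member, 17 were tested, and Gdf3, Nanog, Ooep and Lrrc2 were called down and Gsta2 up at 6 hpd. The counts at 0.5, 1, 2 and 6 hpd were 0, 2, 3 and 4 down, where 0.813%, 3.57%, 5.34% and 7.75% of TUs with a symbol were called down, and 0, 0, 0 and 1 up, where 0.834%, 3.55%, 6.88% and 10.4% were. At the times with none up, none was higher at an unadjusted p under 0.05 or called up by DESeq2. After 0.5 h 1 was lower at an unadjusted p under 0.05 and DESeq2 called none. Gdf3, a TGF-beta family ligand, and Nanog, a core pluripotency factor, flank Dppa3 on chromosome 6. Gdf3 had log2 fold changes of -0.20, -0.63, -0.71 and -0.72 at the 4 times, each ± 0.11, with adjusted p of 0.639, 0.00236, 0.000600 and 0.000397. Its call at 1 hpd was lost without 1 hpd replicate 2 (-0.56). Nanog had -0.18, -0.22, -0.51 and -0.43, each ± 0.11, and was called at 2 and 6 hpd (adjusted p = 0.00642 and 0.0120), with both calls lost without NT replicate 2 (-0.49 and -0.40) and that at 6 hpd without either library of its group (-0.42 and -0.43). Ooep, just upstream of Dppa5a, had -0.18, -0.46, -0.50 and -0.48, each ± 0.12 to 0.13, and was called at 1, 2 and 6 hpd by edgeR (adjusted p = 0.0403, 0.0184 and 0.0170). DESeq2 did not call Ooep (-0.44, -0.47 and -0.45), and its calls were lost without any library of the groups compared, other than 2 hpd replicate 2 (-0.40 to -0.53), that at 1 hpd also without any library of 0.5 or 6 hpd (-0.44 to -0.46). Lrrc2, opposite to Tdgf1, had -0.45 ± 0.11 at 6 hpd (adjusted p = 0.0117), lost without NT replicate 2 (-0.30) or either 6 hpd library (-0.39 and -0.49). Gsta2, a glutathione transferase downstream of Dppa5a with 2.36 CPM in NT and 5.03 at 6 hpd, had a log2 fold change of 1.1 ± 0.27 (0.0133), lost without NT replicate 1 (0.88) or 6 hpd replicate 2 (0.98). The genes tested and not called were Triml2 by Zfp42, Apobec1, Slc2a3 and Mfap5 by Dppa3, Ddx43, Mto1, Mb21d1, Gm10639 and Eef1a1 by Dppa5a, and Als2cl, Ltf and Rtp3 by Tdgf1.

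Of the 30 other pluripotency genes on the list, all tested, 5, 12, 15 and 19 were called down at 0.5, 1, 2 and 6 hpd and 0, 1, 2 and 2 up. Among all TUs with a symbol, 0.813%, 3.57%, 5.34% and 7.75% were called down and 0.834%, 3.55%, 6.88% and 10.4% up. The total at 1 hpd dropped from 13 to 8 without NT replicate 2 or either 1 hpd library, and that at 2 hpd from 17 to 9 without NT replicate 2. Their median log2 fold change was -0.18, -0.29, -0.39 and -0.53. Klf2, a Krüppel-like factor of the naive state, had the smallest p among the falls at 6 hpd, with 78.0 CPM ± 1.56 in NT and 6.51 ± 0.230 at 6 hpd (log2 fold change -3.58 ± 0.14, adjusted p = 1.27e-09). Jarid2, a subunit of Polycomb complex PRC2, had the smallest p among the rises (0.60 ± 0.13, 0.00656), and its call was lost without NT replicate 1 (0.49) or 6 hpd replicate 2 (0.44). At 6 hpd 3 of the 6 genes described here fell and 19 of these 30, beside the 7.75% of all TUs with a symbol.

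For Tdgf1 the list of the Nodal pathway held 18 genes, of which 14 were tested. At 0.5, 1, 2 and 6 hpd 0, 3, 4 and 5 were called down, beside 0.813%, 3.57%, 5.34% and 7.75% of all TUs with a symbol, and 0, 1, 0 and 0 up, beside 0.834%, 3.55%, 6.88% and 10.4%. The median log2 fold change was 0.07, 0.07, 0.17 and 0.05, so that the median and the calls differed in sign. At 0.5 hpd 2 were lower and 2 higher at an unadjusted p under 0.05, and DESeq2 called none. At 2 and 6 hpd 2 and 3 were higher at that p, and DESeq2 called none of them up. Nodal, the ligand that binds Tdgf1, was not called (78.7 CPM ± 2.04 in NT, 76.3 ± 8.2 at 6 hpd, log2 fold change -0.04 ± 0.14). Lefty1, a secreted Nodal inhibitor, had the smallest p, with 3.96 CPM ± 0.561 in NT and 0.257 ± 0.0340 at 6 hpd (-3.92 ± 0.43, adjusted p = 1.78e-05). Lefty2, its relative, had -0.90 ± 0.22 (0.0116), lost without NT replicate 2 (-0.84) or 6 hpd replicate 1 (-0.62). Foxh1, the DNA-binding partner of SMAD2, had -1.01 ± 0.13 (0.000116) at 6 hpd. Gdf3, which also signals through Tdgf1, stands above, and Pcsk6, a proprotein convertase, had -0.51 ± 0.12 (0.00846), lost without NT replicate 2 (-0.52) or 6 hpd replicate 1 (-0.37). Smad3 was the gene called up at 1 hpd (0.43 ± 0.11, adjusted p = 0.0259), lost without NT replicate 2 or either 1 hpd library. The total fell from 4 to 2 at 1 hpd without 1 hpd replicate 2 and from 5 to 3 after 6 h when either NT replicate 2 or 6 hpd replicate 1 was left out.

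For Dppa2 and Dppa4 the list held 26 genes of the 2-cell embryo and the germline, of which 13 were tested and none was called at any time, where 0.813% to 7.75% of all TUs with a symbol were called down and 0.834% to 10.4% up. At an unadjusted p under 0.05, 1 was lower and 1 higher at 6 hpd and none at the earlier times, and DESeq2 called none. The median log2 fold change was -0.03, 0.10, 0.09 and -0.02. Of the 26 genes, 12 had no TU, among them Duxf3, Tcstv1 and Zfp352. Of the 6 Zscan4 genes on the list, Zscan4d was tested, with 11.5 fragments per library on average. Usp17le and Gm5662 had 8.6 and 10.8. The SE of Zscan4d, Usp17le and Gm5662 at 6 hpd were 0.63 to 0.79, so the lack of a call says little of them. The other tested genes had more fragments, up to 1410 per library on average for Sycp3, a protein of the meiotic chromosome axis.

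For Dppa3 the list held 8 genes of DNA methylation, of which 7 were tested, and 0, 0, 1 and 1 were called down and 0, 0, 0 and 2 up, beside the 0.813%, 3.57%, 5.34% and 7.75% down and 0.834%, 3.55%, 6.88% and 10.4% up of all TUs with a symbol. Uhrf1 was the call at 2 hpd, and it was lost without either NT library or 2 hpd replicate 1. At 0.5 and 1 hpd, 0 and 1 were lower at an unadjusted p under 0.05 and DESeq2 called none. Uhrf1, whose protein DPPA3 holds off chromatin, had 382 CPM ± 3.32 in NT and 291 ± 14.4 at 6 hpd (-0.39 ± 0.10, adjusted p = 0.0133), a call lost without either NT library (-0.37 and -0.38) or 6 hpd replicate 1 (-0.33). Dnmt1, the maintenance methyltransferase that UHRF1 recruits, was not called (-0.02 ± 0.10). Dnmt3a, a de novo methyltransferase, had 0.60 ± 0.13 (0.00445), lost without NT replicate 2 (0.55). Tet3, an oxidase of methylcytosine, had 0.52 ± 0.14 (0.0224), lost without either NT library (0.50 and 0.57) or 6 hpd replicate 2 (0.36).

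The list of paralogues and domain relatives had 5 of 12 genes with a TU, all tested, and 2 were called down at 6 hpd, beside 7.75% of all TUs with a symbol. Yy1, from which Zfp42 is derived, and Yy2, another copy of it, were not called (0.03 ± 0.10 and 0.08 ± 0.13 at 6 hpd). Ooep was called, as given above. The other call was Sap30, a subunit of the Sin3 deacetylase complex that is not related to any of the 6 genes (-0.99 ± 0.20, adjusted p = 0.00399), lost without NT replicate 1 (-0.59). Cfc1, the paralogue of Tdgf1, and Khdc3, a relative of Dppa5a, had no TU in the files.

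The 6 genes did not share 1 pattern over the 10 libraries. Pearson's r of their log2 CPM was 0.67 between Dppa2 and Dppa4, 0.60 between Dppa2 and Dppa5a, 0.24 between Dppa4 and Dppa5a, and -0.47 between Dppa5a and Tdgf1. Spearman's rho of these pairs was 0.673, 0.115, 0.358 and -0.285 in the same order. The points share libraries, scaling and group means, and these values are a description only. Among 11938 genes compared, those most like Dppa2 were Shisa7 (r = 0.983), Kirrel2 (0.972) and Lypla1 (0.972). Those most like Dppa5a were Atp5j (0.981), Sall4 (0.978), a zinc finger factor of the pluripotency network, and Atp8b2 (0.974). Those most like Tdgf1 were Exosc10 (0.993), an RNA exosome subunit, Btg2 (0.980) and Alyref2 (0.974). For Dppa4 they were LOC108167380 (0.958), Gm4610 (0.933) and Plagl1 (0.931), and for Dppa3 Bcl2l12 (0.968), Ly6a (0.966) and Platr3 (0.953). Zfp42 had the lowest values, with Mgmt (0.881), Dstn (0.851) and Plekhg1 (0.851). By Spearman's rho other genes came first, with 1 of the 3 kept for Tdgf1 and none for Dppa2, Dppa4, Dppa5a and Zfp42.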

How the data were processed

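TT_chem-seq libraries of SOX2-FKBP cells (5 groups, 2 replicates each, grouped by GEO's labels) were analysed from fragment counts per TU, and cells without the tag were not analysed here. Per the study's methods and processing notes, reads were aligned by the authors (mm10, BWA 0.7.17-r1188), who kept a mapping quality of at least 10 with SAMtools 1.10, removed duplicates with Picard 2.12.0, split strands, called TUs on pooled libraries with a hidden Markov model over 200 bp bins, joined them to RefSeq genes and deposited raw counts. TU starts are printed 1-based. A TU was tested if over 10 fragments fell on it in 2 libraries or more (28459 TUs); the 12320 left out held 0.316% of fragments. The test was edgeR 4.0.16 (R 4.3.3; TMM factors, 1 coefficient per group, quasi-likelihood F-test, Benjamini-Hochberg adjustment over all TUs tested), with DESeq2 1.42.0, other scalings, filters, sample sets, a replicate block and fits without each library as alternatives. The scripts were tested on simulated data. SE is the log2 fold change divided by the root of F. Intervals cover 95%. CPM used TMM-scaled totals, and correlations log2 CPM with a prior count of 2. The members and lists were chosen with earlier results of these data known. Named beside the members were direct partners and paralogues, genes within 100 kb, non-genic TUs within 50 kb that were called, the 3 genes most like each member (Pearson's r, mean of at least 50 fragments), and the list gene with the smallest p in each direction at 6 hpd. Sap30, Pcsk6, Smad3, Dnmt3a, Tet3, Eomes, Otx2, Tfap2c, Sycp3 and the uncalled TUs by Zfp42 and Dppa3 were named after their values were seen. So were the list genes named for few fragments or for having or lacking a TU.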

Additional observations from a re-analysis of the deposited data

How the results depend on the processing

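The labels tie replicates of different groups by a number only. Replicate 1 was the higher in 5 of 5 groups for Dppa2, and replicate 2 in 5 of 5 for Dppa3 and Tdgf1. Dppa4, Dppa5a and Zfp42 were mixed. Deviations from the group means correlated at 0.0742 to 0.291 over the 10 pairs of groups, 8 of them above 0.1, so that the replicate block is one alternative among others. With it, 3 members were called at 0.5 hpd (Dppa2 and Dppa5a down, Tdgf1 up), 1 at 6 against 2 hpd (Dppa4) and 1 at 6 against 1 hpd (Tdgf1), 4 and 6 non-genic neighbours at 1 and 6 hpd, 8 pluripotency genes at 0.5 hpd, 3, 7, 7 and 8 Nodal pathway genes at the 4 times, 2 genes of the 2-cell and germline list at 6 hpd, 2 partners of Dppa3 at 2 hpd and 4 primitive endoderm markers at 6 hpd. It moved no other count by over 1.5 times.

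With total counts, 2 members were called at 0.5 hpd (Dppa2 and Dppa5a), 1 gene of the 2-cell and germline list at 6 hpd and 2 partners of Dppa3 at 1 and at 2 hpd. Signs turned for Zfp42 (-0.025 at 1 hpd, -0.093 at 2 hpd), Yy1 (-0.058) and Yy2 (-0.013). With only the libraries compared, 1 member was called at 6 against 1 hpd (Tdgf1), 1 neighbouring gene at 1 and at 2 hpd, 20 and 10 pluripotency genes at 1 and 2 hpd, 7 Nodal pathway genes at 1 hpd and 2 and 0 partners of Dppa3 at 1 and 2 hpd, and Tdgf1 was called up at 1 hpd (0.26), and Dppa3 turned to 0.00537 at 0.5 hpd. DESeq2 called 1 member at 6 against 1 hpd (Tdgf1), 1 non-genic neighbour and 1 neighbouring gene at 1 hpd, 1 paralogue (Sap30) and 1 primitive endoderm marker at 6 hpd, with Dppa3 at 0.030 at 0.5 hpd and Dnmt1 at 0.014. With a mean of at least 50 fragments, 0 and 1 non-genic neighbours were called at 0.5 and 1 hpd and 1 gene of the 2-cell and germline list at 6 hpd, Dppa3 was not tested, and Zfp42 (-0.011 at 2 hpd) and Yy1 (-0.020) turned. RLE factors and no filter each left 1 neighbouring gene at 1 hpd and 1 primitive endoderm marker at 6 hpd, with Dnmt1 at 0.014 and 0.00562. In the joint test Tdgf1 was also called with the replicate block, with no filter and by DESeq2. Within 20 kb, 0, 1 and 2 non-genic units were called at 0.5, 1 and 2 hpd. The cause of these moves was not tested, except that fewer units lie within 20 kb.

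Without each library in turn, the members called ranged from 0 to 1, 1 to 2, 1 to 2 and 2 to 3 at the 4 times, 0 to 1 at 6 against 1 hpd and 1 to 4 in the joint test. Non-genic neighbours ranged from 0 to 1, 1 to 2, 1 to 5 and 1 to 4, and neighbouring genes from 0 to 2, 1 to 3 and 1 to 5 at 1, 2 and 6 hpd. Pluripotency genes ranged from 4 to 6, 8 to 14, 9 to 18 and 15 to 23, the Nodal pathway from 2 to 5, 3 to 5 and 3 to 7 at 1, 2 and 6 hpd, partners of Dppa3 from 0 to 2 and 0 to 3 at 2 and 6 hpd, and at 6 hpd paralogues from 0 to 2, primitive endoderm markers from 1 to 2 and stem cell markers from 5 to 7. Uncalled values that turned sign ranged from -0.62 to 0.55 (Dppa3, 0.5 hpd), for Zfp42 from -0.14 to 0.069, -0.020 to 0.19, -0.080 to 0.13 and -0.21 to 0.013 at the 4 times, and at 6 hpd from -0.16 to 0.073 (Nodal), -0.0035 to 0.083 (Yy1) and -0.073 to 0.054 (Dnmt1). Dppa3 rests on 27 to 61 fragments per library, and every call on 2 replicates a group.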
